A study of Sus scrofa with 6 samples.

Results

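Genes of the smooth muscle contractile apparatus were followed in cultured pig Sertoli cells. The genes were 10 named in a fixed list, taken by matching pig Ensembl identifiers to symbols: ACTA2, ACTG2, TPM1, TPM2, MYH11, MYL9, CNN1, CALD1, TAGLN and LMOD1. All 10 symbols were matched to rows among the 20731 genes of the deposited table, though the identity of the row named MYH11 is doubtful. RNA had been sequenced from 6 libraries of immature testicular Sertoli cells, which enclose and nourish the developing germ cells of the seminiferous tubule. In 3 libraries, labelled MT, the cells had received 10 nM of the pineal hormone melatonin for 36 h, and 3 libraries were labelled Control, with no solvent or time stated. No allele or further agent is named for either group. Separate cultures or animals behind the replicates are not stated, so p-values measure the spread between these 6 libraries alone, part of which may be technical.

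Smooth muscle contracts when myosin filaments pull on actin filaments wound with tropomyosin. Calcium, through calmodulin, switches on a kinase that phosphorylates the regulatory light chain of myosin, and caldesmon and calponin on the actin filament hold the myosin back. In the testis these proteins are known from the peritubular myoid cells, which wrap the tubule and push its content along, and which often stay behind as companions in Sertoli cell cultures. Many of the genes are switched on by the serum response factor SRF with its cofactors of the myocardin family. Some of them, such as ACTA2 and MYH11, are largely restricted to smooth muscle, myoid cells and myofibroblasts. Others, such as MYL9, CALD1 and TPM1, are also used by spreading non-muscle cells in culture.

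The list was divided between genes of high and of very low measured level, and the very low ones included ACTA2 and LMOD1, genes largely restricted to smooth muscle. FPKM, fragment numbers scaled to gene length and to library size, allows genes to be compared per length. By mean over the 6 libraries, MYL9 stood highest, followed by TAGLN, CALD1, TPM1, TPM2, CNN1, ACTG2, LMOD1, ACTA2 and the row named MYH11. TAGLN and CALD1 could not be ranked, since TAGLN was above CALD1 in only 2 of 6 libraries. LMOD1 was above ACTA2, and ACTA2 above the row named MYH11, in 5 of 6 libraries, and the other 6 steps of the order held in all 6. The 10 genes together took 0.243%, 0.257% and 0.233% of the reads in MT libraries 1 to 3, against 0.249%, 0.252% and 0.215% in Control libraries 1 to 3. Their summed FPKM was 693, 689 and 650.03 in MT and 638, 674 and 754 in Control, so Control 3 was lowest by reads and highest by FPKM.

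The smooth muscle actin genes ACTA2 and ACTG2 had very low values. Actin genes are near-identical in their coding parts, and how shared reads were counted is not stated, so these values are uncertain. ACTA2 (ENSSSCG00000010447, chromosome 14, 100868145 to 100886732), the smooth muscle alpha-actin that is the customary stain for myoid cells, stood at 0.202, 0.0708 and 0.0467 FPKM in the MT libraries, against 0, 0.193 and 0.208 FPKM in the Control libraries. These levels rested on 9, 3 and 2 reads in MT and on 0, 8 and 9 in Control, and the count of 0 allows up to 0.0741 FPKM (3 reads). The highest and the lowest value were both Control libraries, with the MT values between them. ACTG2 (ENSSSCG00000008294, chromosome 3, 69097366 to 69121542), the gamma-actin of visceral smooth muscle, stood at 0.444, 0.594 and 0.503 FPKM in MT and at 0.377, 0.195 and 0.601 FPKM in Control. Its highest value was that of Control 3 and its lowest that of Control 2, with every MT value between them.

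LMOD1 (ENSSSCG00000031201, chromosome 10, 24165293 to 24194823), which starts new actin filaments in smooth muscle, stood at 0.281, 0.335 and 0.132 FPKM in MT and at 0.294, 0.110 and 0.262 FPKM in Control. In each group 1 library, MT 3 or Control 2, was lower than the others, and the groups overlapped. MYH11 (ENSSSCG00000000146), the heavy chain of smooth muscle myosin, was read 4, 7 and 0 times in MT and 2, 1 and 1 times in Control, at most 0.0406 FPKM, where the 0 in MT 3 allows up to 0.0172 FPKM. The identifier of this row is paired with MYH11 by the name table alone, and its position was not checked. Its number directly follows that of the non-muscle chain MYH9 (ENSSSCG00000000145, chromosome 5). The row may therefore not be MYH11, no coordinates are given, and no statement on silence of MYH11 is drawn from it. CNN1 (ENSSSCG00000013614, chromosome 2, 70183370 to 70190756), the calponin of differentiated smooth muscle, lay just under the level that was tested, at 0.869, 0.830 and 0.886 FPKM in MT and 1.06, 0.883 and 1.07 FPKM in Control. Its MT values were the lower ones, except that MT 3 lay just above Control 2.

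The other 5 genes were well expressed. MYL9 (ENSSSCG00000036402, chromosome 17, 39788165 to 39795240), the regulatory light chain that the kinase phosphorylates, stood at 258, 238 and 249.8 FPKM in MT and at 208, 211 and 319 FPKM in Control. All 3 MT libraries lay above Control 1 and Control 2 and below Control 3. TAGLN (ENSSSCG00000015073, chromosome 9, 44561756 to 44567385), or transgelin, an actin-binding protein and early mark of the smooth muscle line, stood at 184, 176 and 155 FPKM in MT and at 154, 195 and 257 FPKM in Control. The MT values lay inside the range of the Control values.

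CALD1 (ENSSSCG00000016535, chromosome 18, 14267955 to 14486641), caldesmon, which is made in a smooth muscle and a non-muscle form that a value per gene does not part, stood at 181, 203 and 179 FPKM in MT and at 206, 199 and 124 FPKM in Control. TPM1 (ENSSSCG00000004570, chromosome 1, 108986981 to 109016090), a tropomyosin that is likewise spliced into muscle and non-muscle forms, stood at 60.0, 63.9 and 57.7 FPKM in MT and at 61.4, 59.9 and 44.5 FPKM in Control. In both genes Control 3 was the lowest of the 6 libraries. TPM2 (ENSSSCG00000005316, chromosome 1, 236402249 to 236410390), the beta-tropomyosin, was much lower, at 8.29, 6.73 and 7.19 FPKM in MT and 7.20, 6.69 and 6.60 FPKM in Control, with overlapping groups.

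**Figure D1:**
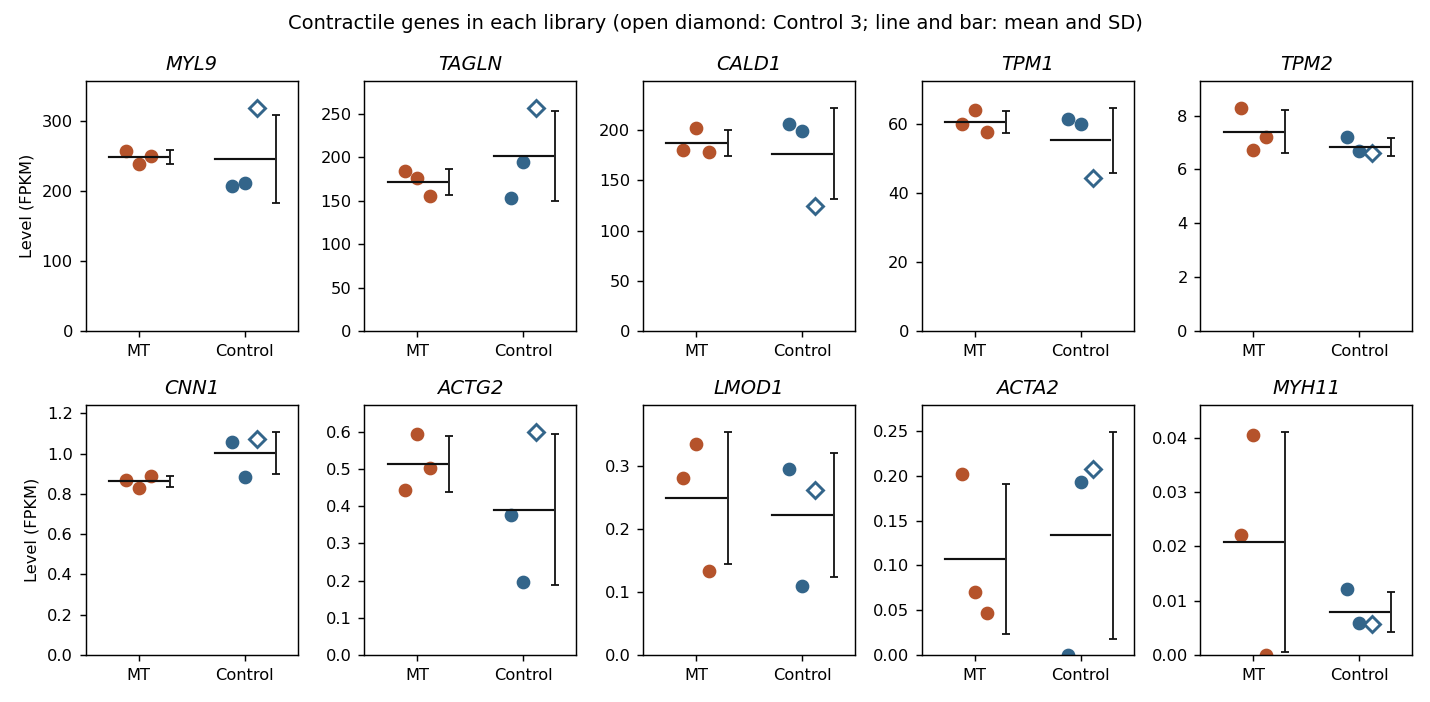
Level (FPKM, linear axis from 0, a scale of its own for each gene) of the 10 contractile genes in each library, with the MT libraries on the left and the Control libraries on the right. Points are libraries, the open diamond is Control 3, and the line and bar give the mean and SD of 3 libraries. MYL9 and TAGLN are highest and CALD1 and TPM1 lowest in Control 3, while ACTA2 and the row named MYH11 stay under 0.21 FPKM in every library.

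The label of the genes as marks of myoid cells was checked against other genes known in those cells. Of 15 listed, 13 were in the table, and 5 of them stayed under 1 FPKM in every library. The receptor PDGFRA reached at most 0.0580 FPKM, PDGFRB 0.00831 FPKM, the matrix proteoglycan DCN 0.0247 FPKM and MYOCD, the cofactor of SRF that defines smooth muscle, 0.0479 FPKM. Other genes of the list were present, among them the integrin ITGA8 at 20.6 to 36.7 FPKM and SMTN, a smooth muscle cytoskeleton protein, at 8.25 to 14.5 FPKM. The intermediate filament gene DES stood at 5.55 to 9.43 FPKM. With ACTA2, MYOCD, PDGFRA, PDGFRB and DCN all under 0.21 FPKM, the set is not called a signature of myoid cells here, although ITGA8, SMTN and DES were present. The value of ACTA2 is uncertain, since how reads shared among actin genes were counted is not stated. The set is called the contractile genes in what follows. In bulk RNA, fewer cells of a type and less RNA per cell cannot be told apart.

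Among Sertoli cell genes, WT1 stood at 10.0 to 12.8 FPKM, AMH at 11.3 to 15.6 FPKM, SOX9 at 1.61 to 2.40 FPKM and CLU at 2909 to 3894 FPKM over the 6 libraries. Of the 17 Sertoli genes in the table, 7 stayed under 1 FPKM, among them INHA, KITLG, DMRT1 and DHH, none of which passed 0.1 FPKM. The 5 endothelial genes in the table summed to 0.493 to 0.631 FPKM in MT and 0.503 to 0.674 FPKM in Control. The 12 genes of striated muscle summed to 9.78 to 13.1 FPKM in MT and 9.11 to 10.2 FPKM in Control, nearly all of it from DES and TNNT1. The 5 pericyte genes summed to 15.4 to 16.7 FPKM in MT and 13.1 to 19.5 FPKM in Control, most of it MCAM, with RGS5 and CSPG4 under 0.1 FPKM. The part of other cell types in the values of the contractile genes was not tested.

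The comparison of MT with Control asks whether melatonin altered the contractile genes. No difference was detected: of the 10 genes, 5 had a mean of at least 1 FPKM and could be tested, and 0 of these 5 passed an adjusted p of 0.05 in limma on log2(FPKM + 1). Over all genes 0 of 10950 (0.0%) passed in limma, 517 (4.72%) had an unadjusted p under 0.05, of which 0 were contractile genes, and limma voom on recovered reads gave 0 and 495. In 0 of the 10 genes did the 3 MT values all lie on 1 side of the 3 Control values, against 11.2% of the tested genes and 9.04% of all genes in the table. With no minimum FPKM 0 of the 10 genes passed, with or without Control 3 (0.0386% of 20731 genes passed without it). The median log2 difference of the 5 tested genes was 0.10 (4 higher, 1 lower in MT), beside 0.02 over all tested genes. Without Control 3 it was -0.0039 (2 higher, 3 lower), so its sign rested on that library.

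MYL9 averaged 249 ± 9.77 FPKM in MT and 246 ± 63.4 FPKM in Control (SD, n = 3 each). Its log2 difference was 0.04 (SE 0.18, adjusted p 0.9998 in limma), with a 95% interval from -0.38 to 0.47. TAGLN averaged 172 ± 15.2 FPKM in MT and 202 ± 51.9 FPKM in Control, a log2 difference of -0.20 with an interval from -0.66 to 0.26. In both genes the SD of the Control libraries was larger than that of the MT libraries.

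CALD1 averaged 187 ± 13.2 FPKM in MT and 177 ± 45.5 FPKM in Control, a log2 difference of 0.12 with an interval from -0.37 to 0.60. TPM1 averaged 60.5 ± 3.15 FPKM in MT and 55.3 ± 9.38 FPKM in Control, a log2 difference of 0.14 with an interval from -0.21 to 0.49. TPM2 averaged 7.40 ± 0.80 FPKM in MT and 6.83 ± 0.32 FPKM in Control, a log2 difference of 0.10 with an interval from -0.18 to 0.37. All 5 intervals held 0, and the widest bounds among them were -0.66 in TAGLN and 0.60 in CALD1.

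Control 3 stood apart from Control 1 and Control 2 over the whole table. MT 1 and MT 3 were about as near to it as to them. Their r with Control 1, 2 and 3 was 0.976, 0.974 and 0.975 for MT 1 and 0.976, 0.971 and 0.971 for MT 3. For MT 2 it was 0.987, 0.986 and 0.952. Control 3 correlated at 0.938 and 0.939 with Control 1 and Control 2, which correlated at 0.993 with each other. All these values are Pearson r across the tested genes, which are no independent replicates. The MT libraries held 20484755 to 21500665 reads and the Control libraries 19579279 to 20961380, as recovered from the FPKM steps.

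In the contractile genes Control 3 moved in both directions. It lay above the mean of Control 1 and Control 2 by 0.60 on the log2 scale in MYL9 and by 0.57 in TAGLN. For CALD1 the difference was -0.70, for TPM1 -0.44 and for TPM2 -0.06. Control 1 and Control 2 differed from each other by -0.34 in TAGLN and by at most 0.09 in size in the other 4 genes. Control 3 was the highest or the lowest of the 6 libraries in all 5 tested genes, as it was in 74.1% of all tested genes. Deviations at least as large as that of CALD1 were found in 20.8% of the tested genes and as large as that of MYL9 in 28.7%.

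Control 3 was higher than the mean of Control 1 and Control 2 in 6 of 10 tested other forms of these families, and in 10 of 19 transcription factors and cofactors, beside 48.5% of all tested genes. The median size of the deviation over all tested genes was 0.42 on the log2 scale. In Control 3 the cytoplasmic actins ACTB and ACTG1 lay 0.84 and 0.73 above the mean of Control 1 and Control 2, and SRF, which switches on actin and smooth muscle genes, lay 0.83 above it. MRTFA, a cofactor that carries the signal of actin assembly to SRF, was 0.64 above, and MYL6, the essential light chain of non-muscle and smooth muscle myosin, 0.79 above. The cofactor MRTFB had a difference of -0.05, and the median of the 19 transcription factors and cofactors was 0.04. The non-muscle tropomyosin TPM4 had a difference of -0.71 and TMOD3, which caps the slow-growing end of actin filaments, one of -1.40. Deviations at least as large were found in 12.7% of the tested genes for ACTB, 13.3% for SRF, 26.0% for MRTFA and 1.82% for TMOD3. The cause of the position of Control 3 was not tested.

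**Figure D2:**
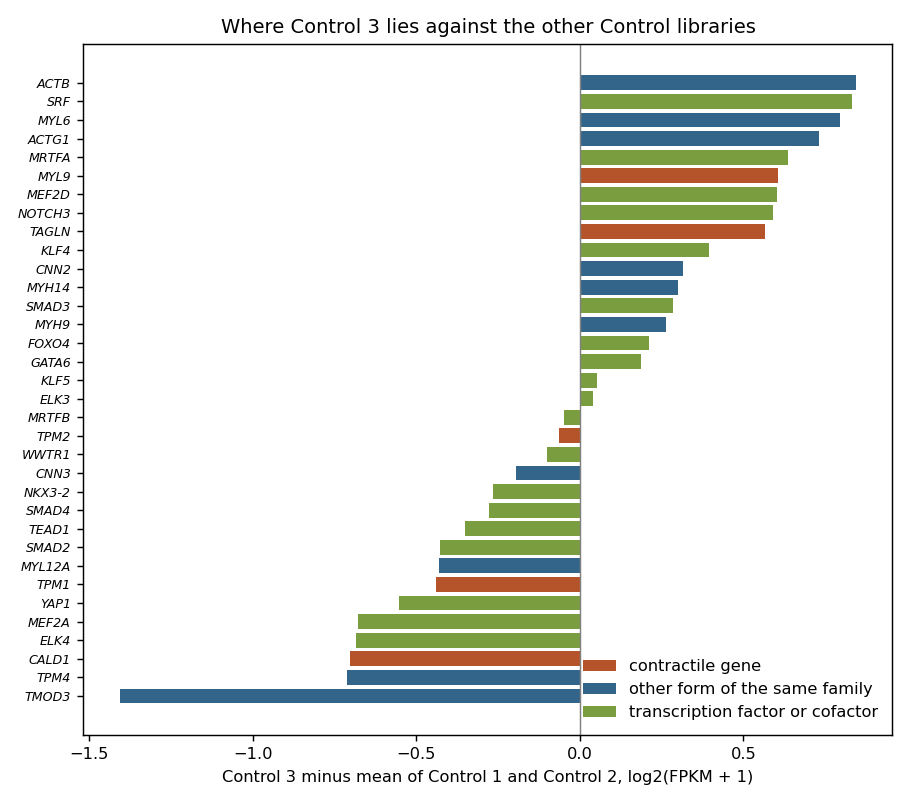
Difference between Control 3 and the mean of Control 1 and Control 2 on the log2(FPKM + 1) scale for the tested contractile genes, other forms of their families and transcription factors or cofactors of smooth muscle genes, sorted by size. ACTB (0.84), SRF (0.83) and MYL6 (0.79) stand at the top, MYL9 (0.60) below ACTG1 (0.73) and MRTFA (0.64), and TPM4 (-0.71) and TMOD3 (-1.40) lie far down.

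Without Control 3, 1194 of 10950 genes (10.9%) passed in limma, 469 of them higher (4.28%) and 725 lower (6.62%) in MT. Of the 5 contractile genes 0 passed. MYL9 came closest, with 258, 238 and 249.8 FPKM in MT against 208 and 211 FPKM in Control, a log2 difference of 0.24 (SE 0.06, adjusted p 0.053 in limma). When these 5 libraries were quantile normalised, a setting chosen after the data were seen, MYL9 passed narrowly (0.20, adjusted p 0.049 in limma), 1 of 5 genes beside 12.2% of all genes (6.05% higher and 6.12% lower). Without Control 1 or Control 2 in place of Control 3 its difference was -0.06 and -0.05. Without Control 3, CALD1 had a log2 difference of -0.12, TAGLN -0.01, TPM2 0.08 and TPM1 -0.0039, with adjusted p in limma of 0.30, 0.94, 0.59 and 0.97. CALD1 and TPM1 changed sign when Control 3 was left out.

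**Figure D3:**
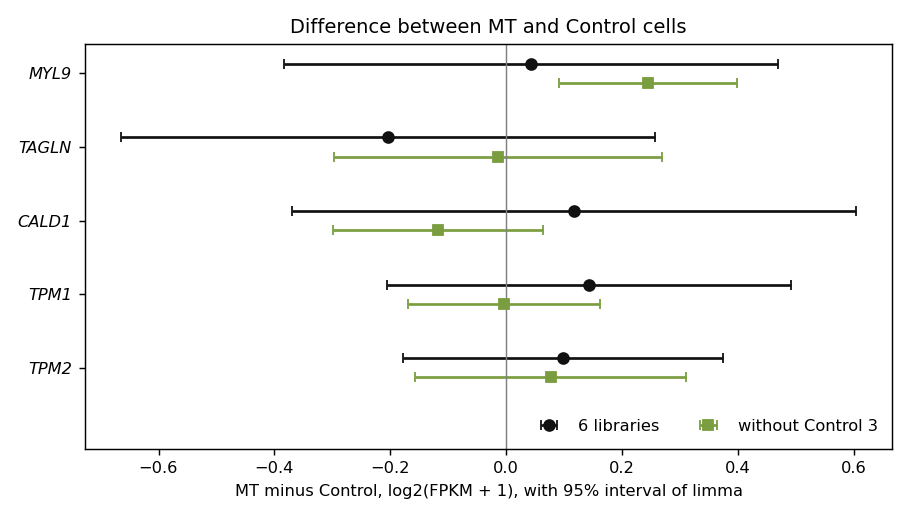
Difference between MT and Control on the log2(FPKM + 1) scale for the 5 tested contractile genes, with the 95% interval of limma, over 6 libraries (circles) and without Control 3 (squares). All 5 intervals cross 0 over 6 libraries, and without Control 3 that of MYL9 runs from 0.09 to 0.40.

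The place of the smooth muscle forms within their protein families was compared next, as a share of summed FPKM. ACTA2 and ACTG2 made up 0.0183%, 0.0199% and 0.0165% of all actin in MT and 0.0130%, 0.0117% and 0.0154% in Control, with ACTG1 at a mean of 2571 ± 91.7 FPKM in MT and 2852 ± 901 FPKM in Control making up most of the rest. The groups did not overlap, with an exact permutation p of 0.10, two-sided, which is the smallest that 3 against 3 libraries can give, and an adjusted p of 0.30 over 6 families. The share rested on 31, 31 and 26 reads in MT and 17, 17 and 38 in Control, so Control 3 had the most reads of the smooth muscle actins but also the most of the cytoplasmic ones. Actin genes are near-identical in their coding parts, and how shared reads were counted is not stated, so these low values are uncertain.

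The row named MYH11, of doubtful identity, made up at most 0.0302% of the myosin heavy chains MYH11, MYH9 and MYH14 in any library. Nearly all of this sum was MYH9, the non-muscle chain, at 117 to 133 FPKM in MT and 110 to 140 FPKM in Control. TPM1 and TPM2 together made up 15.3% ± 0.79 of TPM1, TPM2 and TPM4 in MT and 13.7% ± 1.57 in Control (SD, n = 3 each, exact permutation p 0.20, adjusted 0.30). The difference, 1.57 percentage points, was 0.911 without Control 2 and 2.44 without Control 3. TPM4 was the highest of these tropomyosins, at 378 ± 37.7 FPKM in MT and 399 ± 104 FPKM in Control. CNN1 made up 0.77% ± 0.03 of the calponins in MT and 0.87% ± 0.10 in Control (exact permutation p 0.20, adjusted 0.30), the rest being CNN2 and CNN3, the forms of non-muscle cells, and its difference ran from -0.157 to -0.066 percentage points with a library left out.

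For MYL9 and TAGLN the listed gene was the major one among the family members analysed. MYL9 made up 83.8%, 81.7% and 82.7% of MYL9 and MYL12A in MT and 79.2%, 79.5% and 88.8% in Control. The means were 82.7% ± 1.04 in MT and 82.5% ± 5.47 in Control (SD, n = 3 each, exact permutation p 1.0, adjusted 1.0). TAGLN made up 99.7% to 99.8% of TAGLN and TAGLN3 in MT and 99.9% in each Control library, where TAGLN3, the neuronal form, lay under 0.6 FPKM in every library (exact permutation p 0.10, adjusted 0.30). TPM3, MYH10, MYL12B and TAGLN2 were not analysed here, so these are shares of the family members named.

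Other genes of the contractile system were read from 5 lists in the same fit. DES, SMTN, ITGA8 and MYOCD each stand in more than 1 list. Over 6 libraries 0 genes of any list passed in limma, and 2 had an unadjusted p under 0.05. They were RGS2 among 12 tested genes of contraction control and GLI1 among 8 tested other myoid genes, beside 4.72% of all tested genes. Among 12 tested genes of contraction control, 7 were higher and 5 lower in MT, with a median log2 difference of 0.02, against 4 higher and 8 lower without Control 3, with a median of -0.20. Over all tested genes 56.0% were higher in MT, and 49.4% without Control 3. MYLK, the kinase that phosphorylates MYL9, stood at 16.2, 15.8 and 17.1 FPKM in MT and 14.2, 14.0 and 15.1 FPKM in Control, a log2 difference of 0.17 (SE 0.10), with the MT values above all Control values. RGS2, which damps signals from contractile receptors, stood at 2.46, 2.54 and 1.63 FPKM in MT and 2.91, 4.04 and 3.27 FPKM in Control. Its log2 difference was -0.46 (SE 0.17, adjusted p 0.93 in limma). MYLK and RGS2 were the 2 of 12 genes without overlap between the groups, beside 11.2% of all tested genes. The calmodulin genes CALM2 and CALM3 and the GTPase gene RHOA had the highest levels of the list, at 180 ± 16.1, 145 ± 19.8 and 117 ± 9.18 FPKM in MT and 179 ± 56.9, 144 ± 31.4 and 114 ± 29.4 FPKM in Control. CACNA1C, the pore of the L-type calcium channel, stood at 14.4 ± 0.38 FPKM in MT and 12.7 ± 2.04 FPKM in Control. Without Control 3 its log2 difference was 0.29 (adjusted p 0.044 in limma). CACNA1C was the 1 gene of 12 that passed there, beside 10.9% of all tested genes.

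Of 16 tested genes of dense bodies and adhesion, where actin is anchored, 10 were higher and 6 lower in MT, with a median of 0.08 (12 higher and 4 lower without Control 3, median 0.21). The crosslinker ACTN1 stood at 205 ± 15.4 FPKM in MT and 211 ± 61.3 FPKM in Control, the adhesion linker TLN1 at 141 ± 1.28 FPKM in MT and 135 ± 27.1 FPKM in Control, and the crosslinker FLNA at 98.0 ± 3.23 FPKM in MT and 99.8 ± 32.0 FPKM in Control. Without Control 3, TLN1 (0.24, adjusted p 0.047) and FLNA (0.26, adjusted p 0.0496) passed in limma, 2 of 16 beside 10.9% of all tested genes, and with quantile normalisation added neither did (0.061 and 0.056). SMTN stood at 9.32, 10.7 and 8.25 FPKM in MT and 10.7, 11.96 and 14.5 FPKM in Control, a log2 difference of -0.36 (SE 0.15), and DES at 8.69, 9.43 and 5.81 FPKM in MT and 5.55, 5.66 and 6.62 FPKM in Control, one of 0.35 (SE 0.18). In both genes the groups overlapped in 1 MT library, MT 2 just above Control 1 in SMTN and MT 3 below Control 3 in DES. FBLIM1, which links filamin to adhesions, had 3.54 ± 0.49 FPKM in MT and 2.65 ± 0.49 FPKM in Control.

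Of 19 tested transcription factors and cofactors 15 were higher and 4 lower in MT, with a median of 0.07 (10 higher and 9 lower without Control 3, median 0.01). SRF stood at 23.3, 22.3 and 24.2 FPKM in MT and 18.1, 17.8 and 32.7 FPKM in Control. Every MT library lay above Control 1 and Control 2 and below Control 3, as in MYL9 but also in ACTB, FLNA and TLN1. Control 3 was the highest or the lowest library in 74.1% of all tested genes, and the share of genes with this order was not counted. Over 6 libraries the log2 difference of SRF was 0.08 (SE 0.23), and without Control 3 it was 0.36 (adjusted p 0.033 in limma). KLF4, a repressor of smooth muscle genes, stood at 6.40 ± 0.39 FPKM in MT and 5.19 ± 1.02 FPKM in Control. Without Control 3 its log2 difference was 0.40 (adjusted p 0.037 in limma). SRF and KLF4 were the 2 of 19 genes that passed there, beside 10.9% of all tested genes. With quantile normalisation added, MEF2D, another smooth muscle gene activator, and the receptor NOTCH3 passed as well (0.45 and 0.44, adjusted p 0.044 and 0.047 in limma), 4 of 19 genes beside 12.2% of all tested genes. GATA6 stood at 2.95 ± 0.16 FPKM in MT and 3.69 ± 0.36 FPKM in Control. KLF5 stood at 5.24 ± 0.41 FPKM in MT and 4.35 ± 0.24 FPKM in Control. With MRTFB, which was higher in MT, they were the 3 of 19 genes without overlap between the groups, beside 11.2% of all tested genes. The signal carriers SMAD4 and SMAD3 stood at 19.7 ± 1.65 and 13.5 ± 1.41 FPKM in MT and at 18.3 ± 2.09 and 12.9 ± 2.05 FPKM in Control.

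GLI1 gave the largest difference of the 5 lists. It is a transcription factor of the Hedgehog pathway and stood among the other genes known in myoid cells, of which 8 were tested, 6 higher and 2 lower in MT with a median of 0.19. GLI1 had 2.66, 3.39 and 1.87 FPKM in MT and 0.974, 0.933 and 0.983 FPKM in Control, on 297, 360 and 201 reads in MT and 99, 97 and 107 in Control. The Control libraries, Control 3 included, lay close together, and every MT value was above them. GLI1 was the 1 gene of 8 without overlap, beside 11.2% of all tested genes. The log2 difference was 0.87 (SE 0.17, unadjusted p 0.0014, adjusted p 0.36 in limma), and it was larger with a pseudocount of 0.1 (1.33) and with voom on recovered reads (1.41). Without Control 3 it was 0.88 and passed (adjusted p 0.036 in limma), 1 of 8 genes beside 10.9% of all tested genes. None of the calls made without Control 3 in these lists held when the minimum FPKM was dropped as well, where adjusted p in limma was 0.14 for GLI1, 0.11 for SRF, CACNA1C and TLN1 and 0.12 for KLF4 and FLNA. PTCH1, the Hedgehog receptor and a target of GLI1 in other systems, stood at 2.32, 2.69 and 2.31 FPKM in MT and 1.90, 2.03 and 2.45 FPKM in Control, with overlapping groups. IGFBP6 stood at 28.8 ± 2.73 FPKM in MT and 27.6 ± 4.90 FPKM in Control, and ITGA8 at 25.9, 36.7 and 21.1 FPKM in MT and 20.6, 26.6 and 20.6 FPKM in Control.

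**Figure D4:**
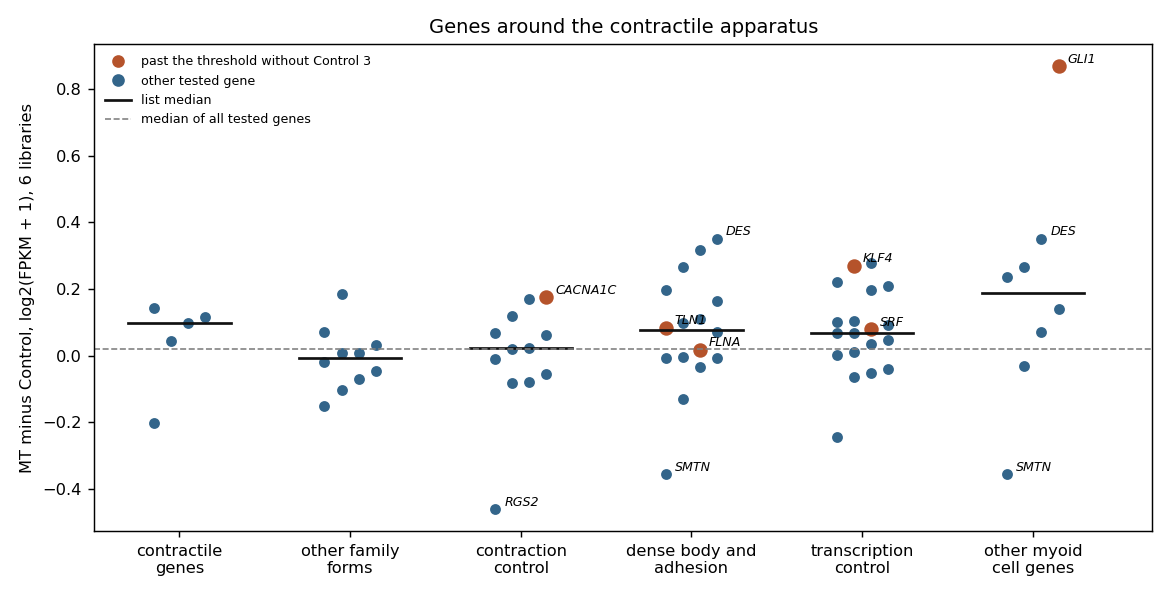
Difference between MT and Control over 6 libraries on the log2(FPKM + 1) scale for each tested gene of the contractile list and 5 related lists, with list medians and the median of all tested genes (0.02, dashed). Larger points passed the threshold without Control 3, and genes beyond 0.34 in size are also named. GLI1 stands alone at 0.87.

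The tested contractile genes did not share 1 profile over the libraries. Over 6 libraries the highest Pearson r among their 10 pairs was 0.98, between TPM1 and CALD1, and the lowest was -0.93, between MYL9 and CALD1. Of the 10 pairs 6 had an r beyond 0.7 in size, and 2 had without Control 3. Between TPM1 and TAGLN r was -0.82 over 6 libraries and 0.17 without Control 3, so it rested on that library. By their likeness to the mean profile of the 5 tested genes, CEND1, NCBP3, CABLES1, FGF11 and IPPK came first over 6 libraries (r 0.93 to 0.96), and 0 of these 5 were among the first 5 without Control 3. With so few libraries and 9483 named genes an r of this size is a description only.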

How the data were processed

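Total RNA of 6 libraries was sequenced, and the sample titles gave the group and number of each. In the deposited table the authors give FPKM, scaled to gene length and library size, in 1 column a library with no pooling. Per the submitters' processing notes, the build was Sscrofa11.1, and bcl2fastq, HISAT2, Subread and featureCounts were used. The sources used here do not give the annotation release, the strand setting or the treatment of shared reads. Symbols were matched to 13173 of 20731 genes, and coordinates were taken by symbol from RefSeq of Sscrofa11.1.

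The 10950 genes whose mean reached 1 FPKM were compared with limma 3.58.1 in R 4.3.3 on log2(FPKM + 1) (variance trend, two-sided, group only), with Benjamini-Hochberg adjustment over all 10950 and a threshold of 0.05. Changes of low genes are understated on this scale. Whole reads and library totals were recovered from the FPKM steps (all 10950 tested genes within 0.01 of whole reads), and limma voom was run on them as an alternative. Where the true numbers of a gene share a divisor, the recovered ones can be too low by that factor. A limit for a count of 0 is 3 reads and covers counting error only. Family shares were compared with exact permutation tests in Python 3.11.15. The scripts were tested on simulated data.

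The 10 genes and all lists were chosen with earlier results of these data known. The genes named are the 10, up to 3 of each list with the highest level and up to 3 with the smallest p, marker genes and the 5 most alike in profile. ACTB, ACTG1, MYH9, MYL6, TPM4, MRTFA, MRTFB, TMOD3, PTCH1 and the genes that passed without Control 3 were also named for the results they touch. The replicate numbers were checked for pairing and not used as a block.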

Additional observations from a re-analysis of the deposited data

How the results depend on the processing

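Of the 10950 genes, 0 passed over 6 libraries under other pseudocounts, filters, scalings and variance models, with voom or without any library except Control 3. Leaving out 1 library gave 0 to 1194 genes over all, 0 contractile genes, and 0 to 1 gene of contraction control, 0 to 2 of dense bodies and adhesion, 0 to 2 of transcription control and 0 to 1 of the other myoid genes, above 0 only without Control 3. Settings added after the data were seen, both without Control 3, gave 1333 genes with quantile normalisation (1 contractile gene, 1 of contraction control, 4 of transcription control, 1 other myoid gene) and 8 of 20731 with no minimum FPKM. With a library left out, MYL9 ran from -0.0641 (without Control 1; -0.05 without Control 2) to 0.2446 (without Control 3), TPM1 from -0.0039 to 0.2245 and CALD1 from -0.1173 to 0.2464. Without Control 3, with quantile normalisation and with no minimum FPKM, CALD1 was at -0.12, -0.17 and -0.12 and TPM1 at -0.0039, -0.0025 and -0.0039. The difference in the MYL9 share, 0.23 percentage points, ran from -1.41 to 3.39 with a library left out, and its difference was -0.0288 as a log2 ratio to MYL12A. The cause of these changes was not tested. TAGLN stayed negative (-0.38 to -0.01) and TPM2 positive (0.02 to 0.16) in all 16 alternatives.

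Same-numbered libraries had correlations of -0.44, 0.63 and 0.34 between their deviations from the group means. Of the 6 libraries, 3 correlated best with their own number. Deviations within a group of 3 depend on each other, and Control 3 stood apart, so these values cannot decide whether the libraries were paired. With the replicate number as a block 0 genes passed, and the median difference of the contractile genes was 0.10. Depth limits ACTA2, ACTG2, LMOD1 and MYH11, which had under 30 reads in every library.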
